A study of Mus musculus with 30 samples.

Results

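The solute carriers are membrane proteins that move amino acids, sugars, metals, ions, nucleotides and vitamins across cell and organelle membranes, and in the mouse their genes carry symbols that start with Slc and a family number. Members were genes with such a symbol, selected on level: the mean of the brightest probe set in at least 1 stage had to exceed the median of all values of its chip. The genes Slc7a1, Slc7a5, Slc3a2, Slc1a5, Slc2a2 and Slc38a4 were left out by name. Of 304 such genes on the chips, 203 met the level rule (76 on chip A, 84 on chip B and 43 on chip C) and 101 did not. The rule took 203 of the 15964 genes measured. Symbols alone chose the genes, so 3 members are proteins named after a carrier that are not carriers themselves (Slc9a3r1, Slc9a3r2 and Slc4a1ap).

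RNA came from dorsal pancreatic buds of NMRI mouse embryos, an outbred stock with no transgene or treatment named in the labels, on each day from e12.5 to e16.5 of gestation. Buds were pooled by litter, and the labels do not say how many litters or embryos made up each day's pool. RNA of each pool was labelled in 2 reactions for the 3 Affymetrix chips of the MG-U74 version 2 set, called A, B and C, which gave 30 arrays, 10 of each chip. The arrays of 1 stage on 1 chip therefore share their RNA and differ by technical error alone, and with 1 pool a stage, stage and pool cannot be told apart.

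Over these days the pancreatic bud branches and its epithelium forms acini that make digestive enzymes, ducts that carry a bicarbonate-rich fluid, and islet cells. Secretory cells need carriers for the amino acids that enter protein synthesis, for the ATP and nucleotide sugars used in the endoplasmic reticulum (ER) and Golgi, and for zinc, which many secreted enzymes and insulin granules bind. Zinc importers belong to the Slc39 family and zinc exporters to the Slc30 family. The mitochondrial carriers of the Slc25 family link the matrix with the cytosol.

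Changes are given on the log2 scale. A stage change is the slope of a straight line over the 5 pool means of a probe set, times 4 days, with its standard error (SE), from limma, which pools information on the spread over all probe sets. A gene rose or fell where its p, adjusted over all 36701 probe sets by the Benjamini-Hochberg method, was under 0.05. Where a gene had several probe sets, the one of highest mean over the 10 arrays of its chip stands for it. The medians of single arrays were 5.71 to 5.76 for chip A, 5.26 to 5.31 for chip B and 3.99 to 4.02 for chip C, and reactions of a pool correlated at 0.9957 to 0.9984. The median SD between the reactions of a stage, over the members, was 0.04 to 0.05 on the 3 chips. Acinar markers checked the tissue: 18 of 19 rose, with a median stage change of 5.19, and the mean of the list over its genes was 6.14 on each array at e12.5 and 10.89 and 10.93 at e16.5. Duct and epithelium markers had 6 risers and 1 faller among 12, endocrine markers 6 and 3 among 18, mesenchyme markers 1 and 7 among 18 and endothelial markers 2 and 4 among 14. The part of these shifts in the changes of the members was not tested. Of the hepatocyte markers, 10 of 16 were at or below the chip median at every stage, among them Alb, the serum albumin gene, which was the 1 that rose (1.11 ± 0.21). Since RNA came from whole buds, fewer cells of a type and less RNA per cell cannot be told apart.

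Among the 203 members, 40 rose (19.7%), 18 fell (8.87%) and 145 did not pass. Of all genes, 11.9% rose and 17.0% fell, and of the 11055 genes that passed the same level rule, 12.9% rose and 22.0% fell. The shares of 12.9% and 22.0% are the background for the count of each substrate class below. The median stage change was 0.14 over the members, 0.02 over all genes and -0.03 over the genes above the level rule. A change of at least 2-fold was fitted for 10 of the risers and 5 of the fallers, against 2.25% of all genes rising and 3.68% falling by that much, and 3.13% and 5.17% of the genes above the level rule. The 5 stage means spanned less than 0.5 in 151 of 203 members, in 11619 of all 15964 genes and in 7273 of the 11055 genes above the level rule. The level rule lets in a gene through its highest stage, so some of the 24 members above the median at only 1 to 4 stages are members because they varied. Of the 179 members above the median at all 5 stages, 33 rose (18.4%) and 13 fell (7.26%), against 11.8% and 21.4% of the 9909 genes above it at all 5 stages.

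**Figure D1:**
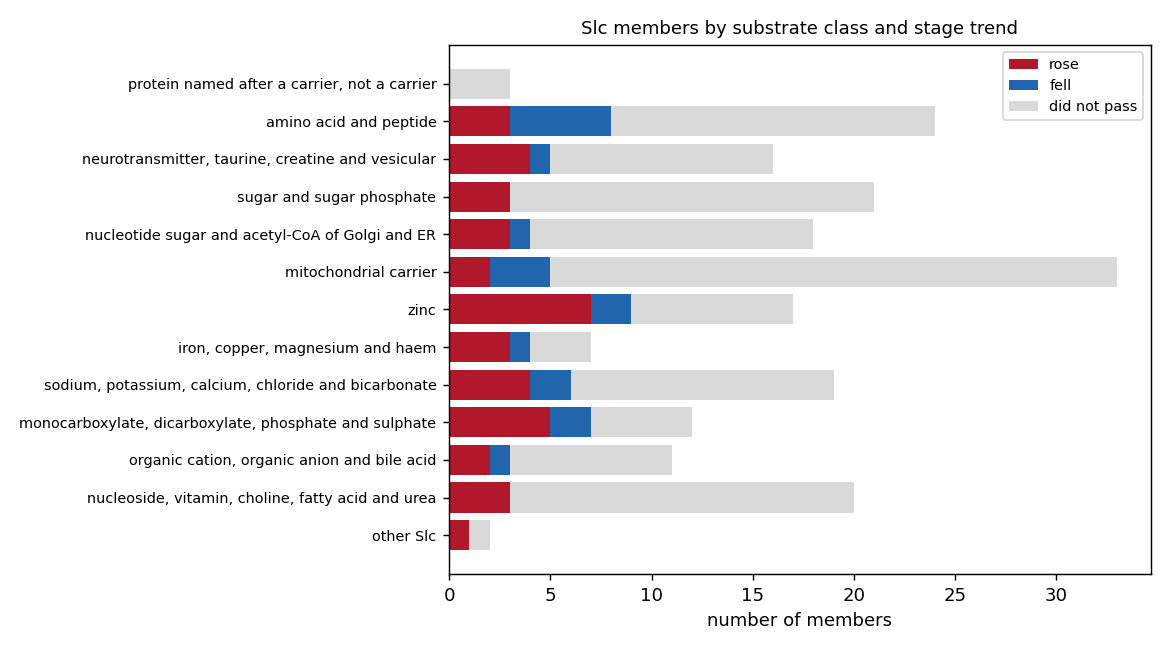
Number of members in each substrate class (horizontal axis) that rose, fell or did not pass the stage trend, with bars stacked from 0. Zinc carriers had 7 risers among 17 members, whereas the 33 mitochondrial carriers had 2. Of all genes above the level rule, 12.9% rose.

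The members with the largest stage changes came from several substrate classes. The magnesium carrier Slc41a1 rose by 2.15 ± 0.27, the glutamine carrier Slc38a3 by 2.09 ± 0.23 and the zinc importer Slc39a5 by 1.48 ± 0.20. The iron exporter Slc40a1 had the largest fall, -1.77 ± 0.39, and was followed by the glutamine carrier Slc38a5 at -1.17 ± 0.28 and the zinc importer Slc39a6 at -1.13 ± 0.10. Other large rises were those of Slc44a3, Slc35c2, Slc39a11, Slc7a4, Slc35b1, Slc25a37 and Slc39a7, which are taken up with their classes.

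**Figure D2:**
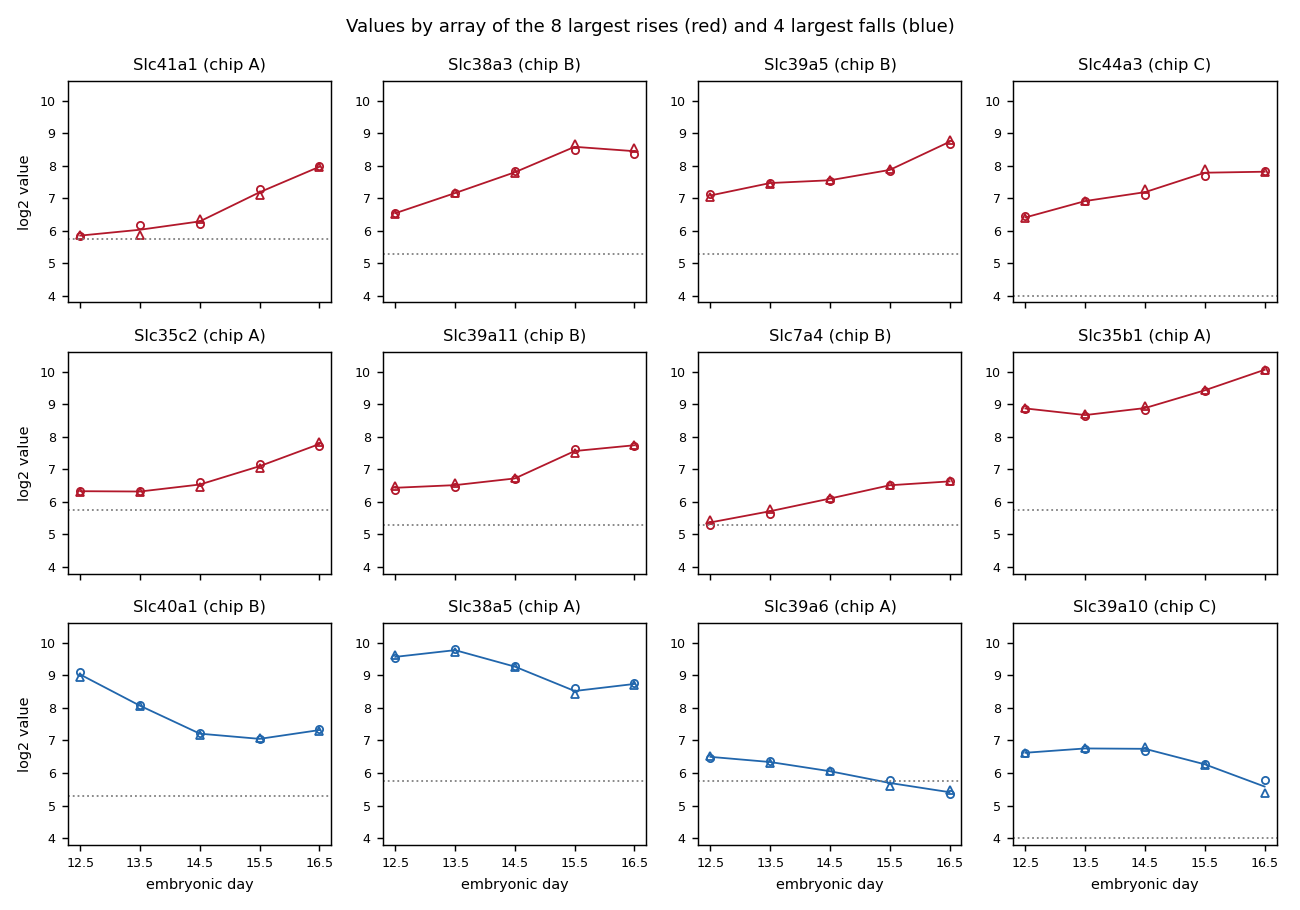
Log2 value (vertical axis) on each array against embryonic day for the 8 members with the largest rises and the 4 with the largest falls. Circles and triangles are the 2 labelling reactions of a pool, lines join stage means, and the dotted line is the chip median. The reactions of a stage differ most for Slc39a10 at e16.5, with 5.79 and 5.38, and levels are not comparable between chips.

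Of 17 zinc carriers, 7 rose (41.2%) and 2 fell (11.8%), and the class median was 0.22. The share of risers was alike among the carriers of iron, copper, magnesium and haem (42.9% of 7) and of monocarboxylates, dicarboxylates, phosphate and sulphate (41.7% of 12). Some of these calls are of members that the level rule took through their higher stages. Among members above the chip median at all 5 stages, 6 of 15 zinc carriers rose and 1 fell. In the monocarboxylate class 3 of 10 rose and 2 fell, and all 7 of the iron class were above it. Of all genes above it at all 5 stages, 11.8% rose and 21.4% fell. Of all genes above the level rule, 12.9% rose and 22.0% fell, and of those on chip B 15.5% and 25.8%. The zinc risers Slc39a5, Slc39a11, Slc39a14, Slc30a7 and Slc30a9 were read on chip B. The classes were drawn with earlier results of these data known. All but 2 of the zinc risers belong to the importer family Slc39, in which 5 of 11 members rose and 2 fell. Of 6 exporters of the Slc30 family, 2 rose. The promoters of 4 importers and of the metallothionein gene Mt1 are shown because zinc-dependent transcription is known to work through the metal response element, a short motif bound by the factor MTF1. They are the 250 bases before the most upstream start that the RefSeq table lists, build GRCm38.p6, all from the minus strand except Mt1, with matches to the core TGCACNC or TGCGCNC on either strand in capitals. For Slc39a5 and Slc39a11 the annotated gene reaches 52 and 108 bases into the window.
Slc39a5, chr10:128401225-128401474: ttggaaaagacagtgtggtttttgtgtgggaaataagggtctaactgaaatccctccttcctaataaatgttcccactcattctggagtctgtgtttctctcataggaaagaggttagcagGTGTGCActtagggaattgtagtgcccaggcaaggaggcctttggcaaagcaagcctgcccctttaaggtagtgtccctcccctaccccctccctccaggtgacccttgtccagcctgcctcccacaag
Slc39a11, chr11:113650093-113650342: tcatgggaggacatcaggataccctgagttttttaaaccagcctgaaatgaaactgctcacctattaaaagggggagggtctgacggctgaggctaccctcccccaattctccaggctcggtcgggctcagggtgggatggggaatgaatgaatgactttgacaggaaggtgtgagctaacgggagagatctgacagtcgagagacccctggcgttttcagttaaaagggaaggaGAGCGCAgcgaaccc
Slc39a7, chr17:34031691-34031940: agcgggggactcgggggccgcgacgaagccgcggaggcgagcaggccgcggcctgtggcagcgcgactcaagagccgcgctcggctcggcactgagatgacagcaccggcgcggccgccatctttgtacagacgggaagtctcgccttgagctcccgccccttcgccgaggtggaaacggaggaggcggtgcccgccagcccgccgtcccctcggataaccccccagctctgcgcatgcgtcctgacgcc
Slc39a10, chr1:46925777-46926026: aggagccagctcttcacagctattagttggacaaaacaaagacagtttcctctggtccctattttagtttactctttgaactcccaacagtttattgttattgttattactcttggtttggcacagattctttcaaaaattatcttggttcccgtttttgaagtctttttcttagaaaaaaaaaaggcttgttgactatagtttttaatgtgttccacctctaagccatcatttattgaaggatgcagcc
Mt1, chr8:94178839-94179088: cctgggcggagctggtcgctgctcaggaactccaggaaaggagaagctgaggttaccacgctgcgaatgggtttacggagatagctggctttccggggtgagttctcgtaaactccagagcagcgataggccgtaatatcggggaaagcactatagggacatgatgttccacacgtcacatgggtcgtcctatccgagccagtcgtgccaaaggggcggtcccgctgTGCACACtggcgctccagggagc
The window of Slc39a5 held 1 match that began 129 bases before the listed start. That of Slc39a11 held 1 at 15 bases, within the part covered by the annotated gene, and that of Mt1 held 1 at 23 bases. None was found for Slc39a7 and Slc39a10. Bases outside the 250 were not searched, so these are not counts for whole promoters, that of Mt1 included.

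The core is a common motif. A match was present in 42 of the 155 members with a listed start (27.1%) and in 5758 of 27025 genes (21.3%). Among zinc carriers with a listed start it was in 2 of 6 that rose, 0 of 1 that fell and 4 of 7 that did not pass. A match is only a run of letters in the window.

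Slc39a5 (probe set 106204_at, chr10:128395927-128401276), which imports zinc at the basolateral membrane of mouse acinar and intestinal cells, read 7.14 and 7.03 at e12.5, 7.48 and 7.45 at e13.5, 7.53 and 7.57 at e14.5, 7.83 and 7.91 at e15.5 and 8.67 and 8.80 at e16.5. Both e16.5 arrays stood above every earlier array, and arrays of neighbouring stages did not overlap. The stage change was 1.48 ± 0.20 (adjusted p = 0.0025), and it was 0.98 without the e16.5 pool, which still passed. Slc39a11 (114625_at, chr11:113244851-113650200), a zinc importer of intracellular membranes, read 6.37 and 6.49 at e12.5, 6.45 and 6.58 at e13.5, 6.71 and 6.73 at e14.5, 7.63 and 7.49 at e15.5 and 7.73 and 7.75 at e16.5. Its arrays fell into a lower set up to e14.5 and a higher set from e15.5 on, and the stage change was 1.46 ± 0.20 (adjusted p = 0.00222). Slc39a7 (103371_at, chr17:34028266-34031690) releases zinc from the ER. It read 8.28 and 8.33 at e12.5, 8.41 and 8.38 at e13.5, 8.70 and 8.68 at e14.5, 8.99 and 9.07 at e15.5 and 9.25 and 9.25 at e16.5, with each stage above the one before. Its stage change was 1.01 ± 0.11 (adjusted p = 0.00183).

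The other zinc risers moved by less than 2-fold. Slc39a14, an importer of zinc and iron, rose by 0.85 ± 0.11, and its 2 other probe sets rose too, by 0.45 ± 0.11 and 0.37 ± 0.10. The Golgi zinc carriers Slc30a7 and Slc39a9 rose by 0.70 ± 0.17 and 0.58 ± 0.11. Both missed the threshold without the e13.5 pool (0.67 and 0.55) and without the e16.5 pool (0.54 and 0.61). Slc30a9, which exports zinc from mitochondria, rose by 0.59 ± 0.09 but lay at the edge of the level rule, and the mean of its 2 probe sets changed by 0.17 and did not pass.

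The falling zinc importers were Slc39a6 and Slc39a10, plasma membrane proteins known to pair with each other. Slc39a6 (103459_at) read 6.47 and 6.52 at e12.5, 6.38 and 6.29 at e13.5, 6.05 and 6.05 at e14.5, 5.80 and 5.59 at e15.5 and 5.35 and 5.48 at e16.5, so that each stage lay below the one before. It was above the chip median at 3 of the 5 stages, those where it was high. Its stage change was -1.13 ± 0.10 (adjusted p = 0.00107). Slc39a10 (132374_at, chr1:46807544-46925776) read 6.62 and 6.63 at e12.5, 6.75 and 6.76 at e13.5, 6.67 and 6.81 at e14.5, 6.27 and 6.26 at e15.5 and 5.79 and 5.38 at e16.5. It was level up to e14.5 and lowest at e16.5, where its reactions also differed most. The stage change of -1.03 ± 0.26 (adjusted p = 0.0275) did not pass without the e13.5 pool (-0.97) or the e16.5 pool (-0.43), and was -1.60 without the e12.5 pool. It was lost as well with the robust variance estimate. Its other probe sets fell as well, by -1.44 ± 0.14 and -0.32 ± 0.10. Of the 8 zinc carriers that did not pass, the brightest on chip A were Slc30a3 and Slc39a4, with stage changes of 0.21 ± 0.10 and 0.16 ± 0.11.

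Among genes that handle zinc and iron but are not carriers of the Slc families, 3 of 15 rose and 2 fell, with a median of 0.20. At every stage 5 of the 15 were at or below the chip median. The metallothioneins Mt1 and Mt2, which bind zinc in the cytosol, rose by 3.68 ± 0.11 and 2.85 ± 0.19. Mt1 had stage means of 8.79, 9.57, 10.58, 11.61 and 12.37 from e12.5 to e16.5.

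Iron, copper, magnesium and haem carriers comprised 7 members, of which 3 rose and 1 fell. Slc41a1 (103547_at, chr1:131828012-131848863), which carries magnesium across the plasma membrane, read 5.85 and 5.86 at e12.5, 6.19 and 5.87 at e13.5, 6.21 and 6.37 at e14.5, 7.27 and 7.10 at e15.5 and 7.99 and 7.95 at e16.5. It was near the chip median at e12.5 and far above it at e15.5 and e16.5, with a stage change of 2.15 ± 0.27 (adjusted p = 0.00326). Its family member Slc41a3 changed by 0.01 ± 0.11 and did not pass. The copper importer Slc31a1 rose by 0.72 ± 0.12, and its other probe set rose by 0.84 ± 0.16; without the e16.5 pool the first was 0.66 and missed the threshold. The iron importer Slc11a2 rose by 0.57 ± 0.15, a call that was lost without the e13.5, e15.5 or e16.5 pool (0.49, 0.55 and 0.43) and without 1 of the 10 arrays, while the change was 0.87 without the e12.5 pool. Its 1 other probe set, also above its chip median, had the same sign but did not pass.

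Slc40a1 (109069_at, chr1:45908070-45926532), ferroportin, the only known cellular iron exporter of mammals, read 9.10 and 8.95 at e12.5, 8.09 and 8.04 at e13.5, 7.24 and 7.18 at e14.5, 7.03 and 7.07 at e15.5 and 7.35 and 7.29 at e16.5. The fall lay between e12.5 and e14.5, and the e16.5 arrays were above those of e14.5 and e15.5. The stage change was -1.77 ± 0.39 (adjusted p = 0.0143). It was -0.96 and missed the threshold without the e12.5 pool, but was -2.71 without the e16.5 pool. The call was also lost with limma's robust variance estimate. Macrophages are rich in ferroportin. Of 20 leukocyte and macrophage markers, 3 fell and 2 rose, and the mean of the list was 5.86 at e12.5, 5.80 to 5.84 at e13.5, 5.60 to 5.61 at e14.5, 5.59 to 5.65 at e15.5 and 6.17 to 6.21 at e16.5. The complement genes C1qb and C1qc, which macrophages make, had stage changes of -0.92 ± 0.23 and -0.50 ± 0.14, whereas C1qa rose by 1.72 ± 0.44. The median stage change of the 20 markers was 0.04, and 15 of them did not pass. Csf1r, a macrophage receptor that was picked after its values were seen, is 1 of these 15 (-0.60 ± 0.20) and does not stand for the list. Its stage means were 6.83, 6.60, 6.23, 6.06 and 6.35 from e12.5 to e16.5. The part of macrophages in the fall of Slc40a1 was not tested.

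Of 24 amino acid and peptide carriers, 3 rose (12.5%) and 5 fell (20.8%), and the class median was 0.04. The fallers Slc38a1, Slc15a4 and Slc43a1 were above the chip median only at their higher stages, and of the 21 members of the class above it at all 5 stages, 3 rose and 2 fell. The changes ran in opposite directions within the glutamine carrier family Slc38, in which 2 of 8 members rose and 3 fell. Slc38a3 (110292_at, chr9:107651154-107668968), which moves glutamine, histidine and asparagine together with sodium in exchange for protons, read 6.56 and 6.52 at e12.5, 7.17 and 7.15 at e13.5, 7.83 and 7.77 at e14.5, 8.49 and 8.67 at e15.5 and 8.35 and 8.54 at e16.5. It climbed in each step up to e15.5, and the last 2 stages overlapped. The stage change was 2.09 ± 0.23 (adjusted p = 0.00109). Slc38a10, a less studied member of the family, rose by 0.85 ± 0.17, though not without the e13.5 pool (0.84) or the e16.5 pool (0.65).

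Slc38a5 (160907_at, chrX:8271381-8280179), a carrier of the same transport type as Slc38a3, went the other way. It read 9.52 and 9.61 at e12.5, 9.82 and 9.72 at e13.5, 9.28 and 9.25 at e14.5, 8.60 and 8.43 at e15.5 and 8.76 and 8.71 at e16.5. Its stage change was -1.17 ± 0.28 (adjusted p = 0.0276), and it missed the threshold without the e13.5 pool (-0.99) or the e16.5 pool (-1.46). Slc38a2 and Slc38a1 take up glutamine and alanine with sodium. Slc38a2 (166012_at, chr15:96687392-96699728) read 8.55 and 8.64 at e12.5, 8.38 and 8.41 at e13.5, 8.13 and 8.32 at e14.5, 7.61 and 7.72 at e15.5 and 7.67 and 7.72 at e16.5. It was higher on every array up to e14.5 than on any later one, with a stage change of -1.01 ± 0.13 (adjusted p = 0.00217). Its 3 other probe sets above the chip median fell by -1.41, -1.36 and -0.82, and its 3 dim probe sets did not pass. Slc38a1 fell by -0.82 ± 0.18, but missed the threshold without the e12.5 pool (-0.88) or the e16.5 pool (-0.41).

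Slc7a4 (164006_at, chr16:17572018-17576890), a relative of the cationic amino acid carriers, had the smallest adjusted p of the members. It read 5.29 and 5.45 at e12.5, 5.63 and 5.80 at e13.5, 6.10 and 6.11 at e14.5, 6.51 and 6.51 at e15.5 and 6.63 and 6.63 at e16.5. The stages did not overlap, and the change was 1.33 ± 0.12 (adjusted p = 0.00046). The lysosomal peptide and histidine carrier Slc15a4 and the neutral amino acid carrier Slc43a1 fell by -0.67 ± 0.12 and -0.62 ± 0.11, and were above the chip median at 2 and 1 of the 5 stages. Slc15a4 missed the threshold without the e16.5 pool (-0.45), and Slc43a1 without the e12.5 pool (-0.57) or the e16.5 pool (-0.51). Among the 6 genes left out by name, the amino acid carriers Slc7a5, Slc7a1, Slc1a5 and Slc3a2 rose by 1.36, 1.12, 0.94 and 0.52, while Slc38a4 and the glucose carrier Slc2a2 fell by -1.29 and -0.80.

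Carriers of nucleotide sugars and related cofactors of the ER and Golgi comprised 18 members, of which 3 rose and 1 fell. Slc35b1 (100091_at, chr11:95384856-95391776), which brings ATP into the ER, was among the 3 brightest members of chip A. It read 8.85 and 8.89 at e12.5, 8.63 and 8.71 at e13.5, 8.82 and 8.95 at e14.5, 9.42 and 9.44 at e15.5 and 10.05 and 10.06 at e16.5. The arrays of e15.5 and e16.5 lay above all earlier ones. Its stage change was 1.25 ± 0.28 (adjusted p = 0.0223), was 1.89 without the e12.5 pool, and did not pass without the e13.5 pool (1.14) or the e16.5 pool (0.75). Slc35b2, which supplies the Golgi with the sulphate donor, rose by 0.62 ± 0.11, while the mean of its 2 probe sets changed by 0.39 and did not pass.

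Slc35c2 (103877_at, chr2:165276522-165287888), a Golgi protein linked to fucose transfer, read 6.35 and 6.31 at e12.5, 6.32 and 6.32 at e13.5, 6.61 and 6.46 at e14.5, 7.15 and 7.04 at e15.5 and 7.71 and 7.84 at e16.5. The change of 1.47 ± 0.24 (adjusted p = 0.00838) was seen with 1 of 4 probe sets only. The other 3, all on chip C, changed by 0.10 ± 0.08, -0.12 ± 0.15 and -0.08 ± 0.10, and the mean of the 4 probe sets changed by 0.34 and did not pass. The brightest probe set changed by 1.01 and missed the threshold when the e16.5 pool was left out. Slc35f1, whose substrate is unsettled, fell by -0.46 ± 0.09, except without the e16.5 pool (-0.33).

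Enzymes of the Golgi that use nucleotide sugars, listed for comparison, had 2 risers and 7 fallers among 35 genes, with a median of -0.105. At every stage 10 of the 35 were at or below the chip median. Mgat4a, which branches N-glycans, rose by 0.90 ± 0.13, and the galactosyltransferases B4galt6 and B4galt5 fell by -0.80 ± 0.14 and -0.78 ± 0.11.

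Mitochondrial carriers were the largest class: 2 of 33 members rose, 3 fell and 28 did not pass. Slc25a4 (93084_at, chr8:46207168-46211062), the ADP/ATP carrier best known from heart and muscle, was the brightest member of chip A. It read 10.36 and 10.46 at e12.5, 10.32 and 10.36 at e13.5, 10.18 and 10.14 at e14.5, 9.77 and 9.83 at e15.5 and 9.51 and 9.49 at e16.5, and the stages from e14.5 on did not overlap. The stage change was -0.95 ± 0.12 (adjusted p = 0.00379), and its other probe set, which shares sequence with other genes by its design, fell by -1.30 ± 0.13. Slc25a5, the more widely expressed ADP/ATP carrier, changed by 0.25 ± 0.15 and did not pass, on a probe set that shares sequence with other genes by its design. Its 2 other probe sets, both above their chip medians, did not pass either, and 1 of them had the same sign.

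The largest mitochondrial rise was that of Slc25a37 (163354_at, chr14:69241848-69285544), mitoferrin 1, which brings iron into the mitochondria of red cell precursors. It read 7.27 and 7.31 at e12.5, 7.14 and 7.04 at e13.5, 7.69 and 7.77 at e14.5, 8.13 and 8.10 at e15.5 and 8.16 and 8.21 at e16.5, with a stage change of 1.12 ± 0.20 (adjusted p = 0.00606). Its other probe sets, both above their chip medians, changed by 0.24 ± 0.19 and 0.25 ± 0.10 and did not pass, and the mean of the 3 probe sets changed by 0.54, which passed. Of 21 red cell markers, 5 rose and 3 fell, and 9 were at or below the chip median at every stage. The mean of the list was 6.65 to 6.69 at e12.5, 6.482 to 6.499 at e13.5, 6.51 to 6.53 at e14.5, 6.37 to 6.40 at e15.5 and 6.29 to 6.31 at e16.5, so it was lowest at e16.5. That mean includes the embryonic globins Hbb-y and Hba-x, which had large falls, whereas the median stage change of the list was 0.21. The haem synthesis enzyme of red cells, Alas2, had stage means of 7.67, 7.35, 8.28, 8.84 and 9.13 from e12.5 to e16.5 and rose by 1.77 ± 0.29. The embryonic globins Hbb-y and Hba-x fell by -5.52 ± 0.68 and -5.35 ± 0.42, and the red cell anion exchanger Slc4a1, a member, changed by 0.07 ± 0.08, on a probe set that its design marks as built by relaxed rules. The part of red cells in the rise of Slc25a37 was not tested.

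Other mitochondrial changes were smaller. The glutathione carrier Slc25a39 rose by 0.49 ± 0.10, but not without the e12.5 pool (0.49) or the e13.5 pool (0.47). The pyrimidine nucleotide carrier Slc25a36 fell by -0.80 ± 0.13, except without the e16.5 pool (-0.68). Slc25a46, an outer membrane protein of this family, fell by -0.59 ± 0.14, a call that was lost without the e12.5 pool (-0.28). Of 12 listed genes for transport through the mitochondrial membranes whose symbols lack Slc25, 9 did not pass and 3 fell: the channel Vdac3 by -0.44 ± 0.10, the import protein Timm22 by -0.43 ± 0.11 and Mtch1, itself a relative of the Slc25 carriers, by -0.30 ± 0.09.

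Carriers of sodium, potassium, calcium, chloride and bicarbonate held 4 risers and 2 fallers among 19 members, all of them changed by less than 2-fold in the fitted line. Slc9a3 (106486_at, chr13:74086255-74169442), the sodium/proton exchanger of absorptive epithelia, read 4.80 and 4.76 at e12.5, 5.12 and 5.13 at e13.5, 5.19 and 5.25 at e14.5, 5.33 and 5.36 at e15.5 and 5.74 and 5.90 at e16.5. No stage overlapped another, and the change was 0.92 ± 0.13 (adjusted p = 0.00256), but it lay below its chip median up to e14.5. Slc4a11, a relative of the bicarbonate carriers, rose by 0.53 ± 0.11, though not without the e12.5 pool (0.40) or the e16.5 pool (0.51). Slc26a6, which exchanges chloride for bicarbonate in pancreatic ducts, and Slc12a8, a relative of the chloride cotransporters, rose by 0.35 ± 0.10 and 0.33 ± 0.09. Slc26a6 missed the threshold when any pool except that of e15.5 was left out, and Slc12a8 when any except that of e12.5 was. Their changes over all 27 alternative settings were 0.26 to 0.51 and 0.29 to 0.49.

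The potassium chloride cotransporter Slc12a7 had stage means of 7.01, 6.93, 6.66, 6.27 and 6.26 from e12.5 to e16.5, a fall of -0.86 ± 0.12 (adjusted p = 0.00498). A second cotransporter of potassium and chloride, Slc12a4, fell by -0.36 ± 0.10, a call that was lost in 17 of 27 alternative settings, with changes from -0.45 to -0.26, among them without each of the 5 pools. Slc12a2, which loads epithelial cells with chloride, changed by 0.01 ± 0.11 and did not pass. Slc4a3 missed the threshold at -0.71 ± 0.21 (adjusted p = 0.0518).

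Genes for epithelial ion and water transport outside the Slc families had 9 risers and 3 fallers among 31, with a median of 0.17. At every stage 6 of the 31 were at or below the chip median. The largest rises were those of the water channel Aqp8, 3.67 ± 0.90, of Fxyd3, a regulator of the sodium pump, 2.71 ± 0.27, and of the water channel Aqp4, 2.20 ± 0.34. Aqp8, a channel of acinar cells, had stage means of 5.24, 5.19, 5.23, 6.51 and 9.16 from e12.5 to e16.5.

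Carriers of monocarboxylates, dicarboxylates, phosphate and sulphate counted 5 risers and 2 fallers among 12 members. Of the 10 above the chip median at all 5 stages, 3 rose and 2 fell. The monocarboxylate family members Slc16a6 and Slc16a5 rose by 0.72 ± 0.12 and 0.47 ± 0.11, and the kidney-type dicarboxylate carrier Slc13a2 by 0.60 ± 0.13. None of these 3 passed without the e16.5 pool (0.50, 0.51 and 0.66), nor did Slc16a5 and Slc13a2 without the e12.5 pool (0.36 and 0.35). The citrate carrier Slc13a5 and the phosphate carrier Slc34a3 rose by 0.41 ± 0.12 and 0.42 ± 0.12, and each missed the threshold without 4 of the 5 pools taken in turn, among them the e12.5 pool (0.19 and 0.22). The phosphate carrier Slc20a1 fell by -0.64 ± 0.10, but not without the e12.5 pool (-0.52). Slc20a2, of the same family and among the brightest members of chip B, changed by -0.35 ± 0.12 and did not pass. The sulphate carrier Slc13a4 fell by -0.26 ± 0.08 on a probe set that shares sequence with other genes by its design. That call was lost in 19 of 27 alternative settings, with changes from -0.34 to -0.19, among them without each of the 5 pools.

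Of 21 members in the class of sugar carriers, 3 rose and the other 18 did not pass. The class took the families Slc2, Slc5, Slc37, Slc45 and Slc50 whole, so not every member need carry a sugar. Slc50a1, a sugar carrier of the Golgi and plasma membrane, rose by 0.68 ± 0.13, the fructose carrier Slc2a5 by 0.48 ± 0.09 and Slc2a6 by 0.33 ± 0.10. The calls of Slc50a1 and Slc2a5 were lost without the e16.5 pool (0.46 and 0.38), that of Slc2a5 also with the mean of its probe sets (0.17), and that of Slc2a6 in 15 of 27 alternative settings, with changes from 0.23 to 0.39, among them when any pool except that of e15.5 was left out. The widespread glucose carrier Slc2a1 had a change of -0.28 ± 0.10, which did not pass.

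Carriers of nucleosides, vitamins, choline, fatty acids and urea held 3 risers among 20 members, and the other 17 did not pass. Slc44a3 (166715_at, chr3:121459528-121532344), of the choline transporter-like family, read 6.44 and 6.38 at e12.5, 6.91 and 6.92 at e13.5, 7.09 and 7.28 at e14.5, 7.67 and 7.90 at e15.5 and 7.84 and 7.79 at e16.5. Only the last 2 stages overlapped, and the change was 1.47 ± 0.14 (adjusted p = 0.000676). The choline carrier Slc44a1 rose by 0.61 ± 0.14, though not without the e12.5 or e13.5 pool (0.52 and 0.61) or with the mean of its 4 probe sets (0.28). Slc52a3, which carries riboflavin, rose by 0.53 ± 0.15, though not without the e12.5 pool (0.28), the e15.5 pool (0.45) or with the mean of its probe sets (0.27).

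Neurotransmitter, taurine, creatine and vesicular carriers had 4 risers and 1 faller among 16 members, all by less than 2-fold. Of all genes above the level rule, 12.9% rose and 22.0% fell. Of the 11 members above the chip median at all 5 stages, 2 rose and 0 fell. The other calls are of members that the level rule took through their higher stages. The anion carrier Slc17a3 rose by 0.60 ± 0.14, on a probe set that shares sequence with other genes by its design. The vesicular polyamine carrier Slc18b1 rose by 0.46 ± 0.13, the GABA carrier Slc6a11 by 0.40 ± 0.11 and the vesicular ATP carrier Slc17a9 by 0.40 ± 0.11. The creatine carrier Slc6a8 fell by -0.40 ± 0.10, a call that was lost in 9 of 26 alternative settings, with a change of -0.05 for the mean of its 3 probe sets. The mean of the probe sets of Slc17a3 changed by 0.40 and did not pass either. None of these 5 passed without the e12.5 pool (0.40, 0.25, 0.27, 0.50 and -0.52) or without the e16.5 pool (0.51, 0.56, 0.37, 0.19 and -0.36). Of 16 neuron and Schwann cell markers, 7 fell and 1 rose.

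Organic ion carriers held 2 risers and 1 faller among 11 members, and 1 riser and 1 faller among the 8 above the chip median at all 5 stages. The carnitine carrier Slc22a16 rose by 0.50 ± 0.12, except without the e12.5 or e16.5 pool (0.45 and 0.34), and Slc22a13 by 0.32 ± 0.10, a call that was lost in 13 of 27 alternative settings, with changes from 0.19 to 0.45, among them without each of the 5 pools. Slc22a18 was read in opposite directions by its probe sets: on chip C, where it was among the 3 brightest members, it fell by -0.37 ± 0.08, and on chip A it rose by 0.49 ± 0.11. The fall missed the threshold when the e13.5 pool (-0.34) or the e16.5 pool (-0.28) was left out. Slc25a53, whose brightest probe set did not pass (0.08 ± 0.13), likewise had 1 probe set that rose, by 0.45 ± 0.11, and 1 that fell, by -0.45 ± 0.11. The direction of these genes was not settled here. Slc66a2, set in no substrate class, rose by 0.85 ± 0.09, and the 3 adaptor proteins did not pass.

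**Figure D3:**
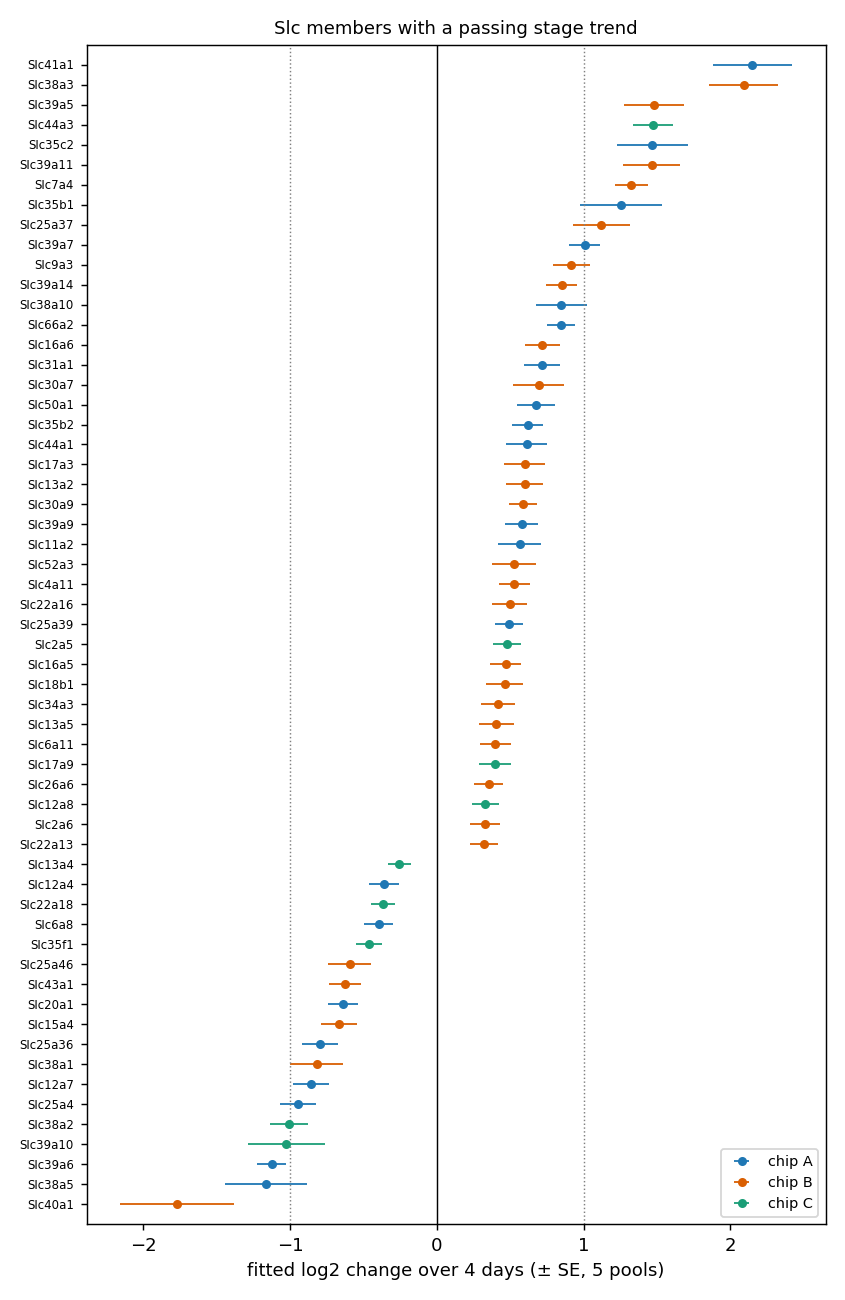
Stage change with SE (horizontal axis, log2 over 4 days, n = 5 pools) of the 58 members that passed, ordered by size and coloured by chip. Dotted lines mark a 2-fold change. The risers under 2-fold are mostly on chip B, with 18 of 30.

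Carrier families outside the Slc symbols were set beside the members. Unlike the members, no comparison list had to meet the level rule. In the Slco family of organic anion carriers, 2 of 11 genes rose and 1 fell, and 7 were at or below the chip median at every stage. Of 43 ABC transporters, which are driven by ATP, 11 rose and 2 fell, with a median of 0.20. Of these 43, 15 were at or below the chip median at every stage. Among the ABC risers, Abcg5, Abcc2 and Abca9 were that dim and were read on chip B, where dim genes often rose by a small amount. Abca7, Abcb11, Abcb10 and Abcb6 were read on chip B too. Among all genes, 11.9% rose and 17.0% fell. Abcb6, which moves porphyrins, had the largest change of the ABC transporters, 1.57 ± 0.17. The largest fall among them was that of Abcc9, -1.19 ± 0.15.

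All 4 steps between consecutive stages went up in 19 of 40 risers (47.5%), against 50.9% of all genes that rose, and all 4 went down in 10 of 18 fallers (55.6%), against 58.6% of all genes that fell. The largest step was the one between e15.5 and e14.5 in 16 of 40 risers and 8 of 18 fallers. Among all genes that rose it was the largest in 34.8%, and among all that fell in 22.3%. Curvature was tested as the fitted height at e14.5 minus the mean of the heights at e12.5 and e16.5. Slc39a10 had a peak (0.60 ± 0.07, adjusted p = 0.0179), and Slc40a1, Slc35b1 and Slc35c2 had dips (-0.90 ± 0.10, -0.57 ± 0.08 and -0.49 ± 0.07), with adjusted p = 0.0164, 0.0449 and 0.0476. Of all genes, 0.357% had a peak and 0.294% a dip, and of those above the level rule 0.488% and 0.407%. The count of 4 was between 1 and 13 when 1 pool was left out.

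Between e16.5 and e12.5 alone, with 1 pool each and so no test, 9 members were at least 2-fold higher and 3 at least 2-fold lower, against 2.20% and 4.25% of all genes and 3.05% and 5.97% of the genes above the level rule. The 9 were Slc41a1, Slc38a3, Slc39a5, Slc35c2, Slc44a3, Slc39a11, Slc7a4, Slc35b1 and Slc9a3, and the 3 were Slc40a1, Slc39a6 and Slc39a10. Slc41a1 averaged 7.97 at e16.5 and 5.85 at e12.5, and Slc40a1 averaged 7.32 at e16.5 and 9.02 at e12.5.

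**Figure D4:**
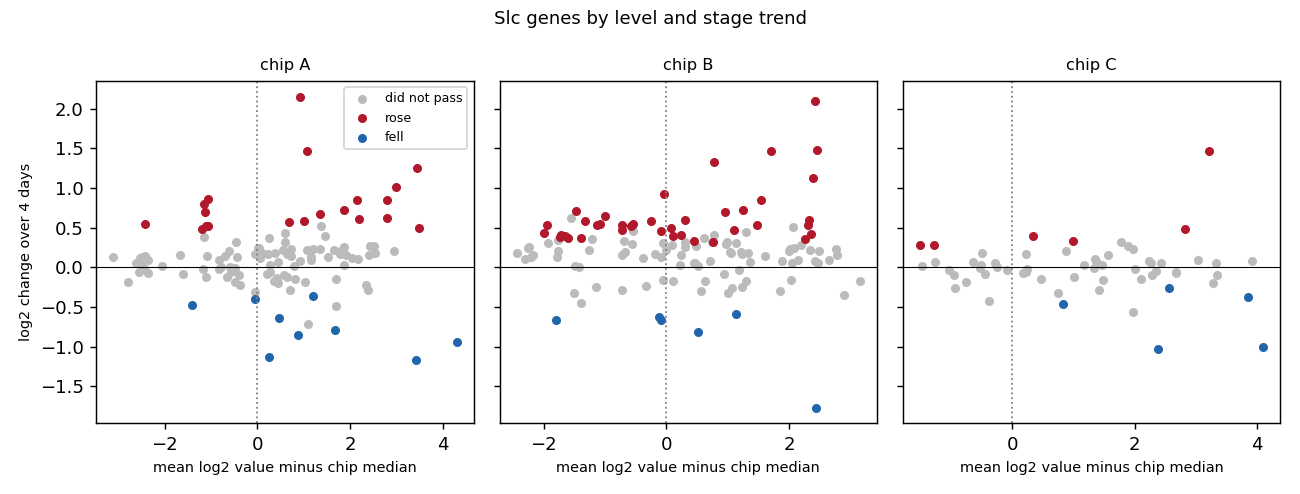
Stage change (vertical axis, log2 over 4 days) against mean log2 value minus the chip median (horizontal axis) for all 304 Slc genes, by chip. Points left of the dotted line have a mean below the chip median. On chip B many dim Slc genes rose by a small amount.

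Small rises were a feature of chip B, also among genes too dim for the rule. Of the 101 Slc genes at or below the chip median at every stage, 25 rose and 2 fell (9.64% and 5.70% of all genes that dim), and 16 of the risers were among the 44 on chip B. Among all genes of chip B that dim, 18.2% rose and 7.10% fell, with a median change of 0.17, whereas 5.45% of such genes of chip A rose and 5.45% fell, and 4.86% of such genes of chip C rose and 3.96% fell. The members of chip B had 23 risers and 5 fallers among 84, where 15.5% of the genes above the level rule rose and 25.8% fell. Members of chip A had 13 and 8 among 76, against 12.8% and 22.3%, and those of chip C 4 and 5 among 43, against 8.45% and 14.3%. When each array was centred on its dim probe sets, 30 of the 40 rises and all 18 falls remained, and 22 members fell in all. Over all genes that scaling gave 1302 rising and 2895 falling, against 1902 and 2709 as deposited. Members on chips A and C alone had 17 risers. Just inside the level rule were Slc5a3, Slc30a9, Slc22a21 and Slc29a2, whose highest stage mean exceeded the chip median by 0.01 to 0.07. Slc7a15, Slc4a4, Slc26a11 and Slc2a4rg-ps lay just outside, by 0.04 to 0.13.

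**Figure D5:**
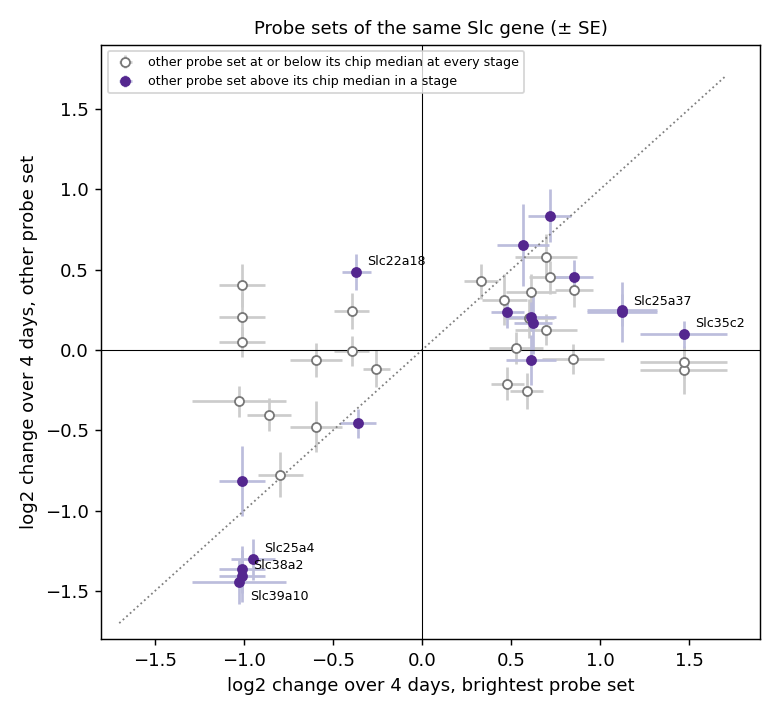
Stage change of a second probe set (vertical axis) against that of the brightest probe set (horizontal axis) of the same gene, for members that passed, with SE. Filled points are probe sets above their chip median in a stage. They share the sign of the brightest probe set in 15 of 17 cases.

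Where a gene had several probe sets, the size of its change depended on which was read. Of 58 members that passed, 26 had more than 1 probe set, 12 of them with another that passed in the same direction and 1, Slc22a18, with another that passed in the opposite one. Among 17 other probe sets above their chip median, 8 gave the same call and 8 did not pass. A further 20 members counted as not passing had another probe set that passed. The 3 brightest members were Slc25a4, Slc25a39 and Slc35b1 on chip A, Slc37a3, Slc20a2 and Slc12a3 on chip B and Slc38a2, Slc4a1 and Slc22a18 on chip C, and of these Slc37a3 (-0.17 ± 0.09), Slc20a2 (-0.35 ± 0.12), Slc12a3 (0.15 ± 0.11) and Slc4a1 (0.07 ± 0.08) did not pass.

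Single pools weighed on many calls. Of the 58 calls, 41 were lost without at least 1 of the 5 pools, and 14 without at least 1 of the 10 arrays of a chip. Without the e16.5 pool, 18 members rose and 7 fell, and the counts over all genes dropped too, to 754 rising and 1299 falling, against 1902 and 2709 with all 5 pools. The calls of 15 members held in all 27 alternative settings, or in all 26 that could be run for Slc9a3, which the filter for bright probe sets leaves out: Slc41a1, Slc38a3, Slc39a5, Slc44a3, Slc39a11, Slc7a4, Slc25a37, Slc39a7, Slc9a3, Slc39a14, Slc66a2, Slc39a6, Slc38a2, Slc25a4 and Slc12a7.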

How the data were processed

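The authors deposited log2 expression for each probe set on each array, summarised by RMA according to the submitters' processing notes. Software and version are not given in the sources used here, and the log base was inferred from the range. RMA corrects background, equalises array distributions and summarises probes, so a change in total RNA per cell is removed. Each chip was treated as normalized on its own, and levels were not compared between chips. No detection calls were given, and no probe set was dropped as dim. Precision is limited by the number of pools, 5, with 1 per stage.

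Gene names came from the platform annotation, with symbols and coordinates from RefSeq, GRCm38.p6. Of 36701 probe sets, 29131 had 1 symbol, 724 several and 6846 none here. Promoters came from RefSeq too, and 155 members matched. The members, the substrate classes and the comparison lists were chosen with earlier results of these data known.

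Both reactions of a pool were averaged. Lines and quadratic curves over embryonic day were fitted with limma 3.58.1 in R 4.3.3 to the 5 pool means of all probe sets of a chip, with p adjusted over the 3 chips by Benjamini-Hochberg at 0.05. P-values measure the spread between single pools of 1 stage each around the fitted shape. Genes were named by rule: the 15 largest rises and falls with the same sign in both reactions, up to 4 passing members per class (the 2 largest slopes where none passed) and per list, passing curves, the 3 brightest members per chip, members read in opposite directions, neighbours of the level threshold and the 6 genes left out. Many list genes that the rule picked are not given in the text, among them Mrc1, Heph, Ireb2 and Abcg2. Slc12a2, Slc12a8, Slc13a4, Slc13a5, Slc25a5, Slc26a6, Slc2a1, Slc30a3, Slc30a7, Slc34a3, Slc39a4, Slc39a9, Slc41a3, Slc4a1ap, Slc4a3 and Csf1r were named after their values were seen.

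In simulated data for chip A (12422 probe sets), changes were straight lines and every probe set had the same spread. There the stage trend recovered 79% of 1.5-fold and 100% of 2-fold changes, with 5 false calls among 12222. Spread differs between the real probe sets, so these shares do not carry over to them. Equal reaction numbers did not pair the arrays across stages. Alternatives were other scalings, probe set rules, filters and variance models, single arrays, pools or reactions left out, and the replicate number as a block.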

Additional observations from a re-analysis of the deposited data

How the results depend on the processing

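The main counts were 40 members rising, 18 falling and 4 with a curve. With the 10 arrays as separate points they were 73, 32 and 26, and with the replicate number as a block 72, 31 and 20. Over all genes, rises and falls numbered 1902 and 2709 in the main setting, 3701 and 4090 with separate arrays and 3545 and 3969 with the block. Both fits on arrays treat reactions of 1 pool as independent, and equal numbers did not deviate together (correlations from -0.176 to 0.11). Asking for a 2-fold change as well left 10 and 5, all Slc genes without the level rule gave 65 rising, and members of chips A and C alone 17, an alternative chosen after seeing the data. Leaving out 1 pool or array gave 18 to 41 rising, 7 to 18 falling and 1 to 13 curves, while all genes gave 754 to 1920 rising and 1299 to 2787 falling. The curve count was 2 with arrays centred on their dim probe sets (chosen after seeing the data) or on their median, with bright probe sets only, with an intensity trend in the variance and with either reaction alone, and 1 when a gene's probe sets were averaged. For Slc22a18 that average turned the change to 0.0586. Of the calls above the threshold, 15 of 58 held in every setting that could be run for them. The causes were not tested. Dim probe sets have no background level here, so their small changes are least certain.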
